A study of Xenopus laevis with 30 samples.

Results

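The enzymes that make urea and those that make new glucose were followed through the development of the clawed frog Xenopus laevis, from the cleaving egg to the feeding tadpole. The members are 9 of the 9271 genes that the array annotation names, the urea cycle genes cps1, otc, ass1, asl and arg1 and the gluconeogenesis genes pck1, pck2, fbp1 and g6pc1.1. A probe set was taken when the platform annotation gave it a single gene symbol and that symbol, in lower case and without the ending .L or .S, was 1 of these names. The ending tells apart the gene copies on the long (L) and short (S) chromosomes of this species, whose genome was doubled in its past. The rule found 12 probe sets among 32475 that are not controls, out of 32635 on the array, and all 9 genes had at least 1. The genes asl, pck1 and g6pc1.1 had 2 probe sets each; for asl both carry the symbol asl.L, and for the others 1 stands for each copy.

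RNA of whole wild-type embryos of mixed sex was hybridised to 30 Affymetrix arrays, 2 for each of the cleavage and blastula stages 2, 5 and 9, the gastrula and neurula stages 11, 13, 17 and 19, the tailbud stages 21, 23, 26, 28 and 31, and the later stages 37-38, 43 and 48. The 15 stages were the only difference between groups: no embryo carried a transgene or received a treatment, per the labels. Each array stood for 1 pool of several embryos. The pools of a stage are biological replicates by their labels, which do not say whether they came from different parents, so p-values measure the spread between these pools. A pool averages over tissues, sexes and individuals, and in whole embryos fewer cells of a type and less RNA per cell cannot be told apart.

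The urea cycle joins ammonia and bicarbonate to ornithine in the mitochondria of liver cells and releases urea in the cytosol, where arginine is split and ornithine is formed again. Gluconeogenesis runs glycolysis backwards with a few enzymes of its own, which turn oxaloacetate into phosphoenolpyruvate, remove a phosphate from fructose bisphosphate and finally free glucose from its phosphate. In adult mammals both pathways are at home in the liver, with gluconeogenesis in the kidney too. Frog tadpoles excrete much of their nitrogen as ammonia, and their liver is known to raise the urea cycle enzymes at metamorphosis, which lies beyond the last stage sampled here. Before feeding, the embryo lives on yolk platelets stored in every cell.

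The values are signal intensities in arbitrary units, and every array had a 2% trimmed mean of 500. Array medians lay between 106.51 and 184.76, and log2 signals of the 2 arrays of a stage correlated at 0.9741 to 0.9847 across tested probe sets. Signals well under the median of their array are poorly measured. Tests were therefore limited to probe sets with a stage at which each array gave more than its own median, which were 23374 of 32475 and 10 of the 12 members. Where the dimmer stage of a pair lies under that median, the fold is taken against the mean of that stage's array medians and written "at least N-fold". This floor was chosen for convenience and no blank was measured. The added poly-A control RNA was brighter early than late, averaging 1084 units at stage 2, 729 at stage 21, 470 at stage 31 and 348 at stage 48. Scaling to it moves the median change of all tested probe sets by 0.08, 0.50, 0.62, 0.36, 0.20 and -0.13 on the log2 scale over the 6 intervals used below, and all changes here are relative to an array's total. Median centring moves it by -0.27, -0.14, -0.21, -0.07, -0.06 and -0.02.

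The members did not come on together. The probe sets asl.L probe set 2, pck2.L and fbp1.L were above the array median at all 15 stages. The probe set asl.L probe set 1 was above it at stages 2 to 13, under it on both arrays at stages 17 to 31, and above it again from stage 37-38 on. Of the others arg1 was first above it on both arrays at stage 9, ass1 at stage 21, pck1.L and g6pc1.1.L at stage 23, g6pc1.1.S at stage 28 and pck1.S at stage 31. On the first stage 26 array g6pc1.1.L was under it again, with 142 against a median of 164. The genes of the first steps of the urea cycle, cps1 and otc, did not reach it on both arrays at any stage. The number of the 12 member probe sets above the median was 4, 4, 5, 5, 5, 4, 4, 5, 7, 6, 8, 9, 10, 10 and 10 in the order of the stages, while the share of all probe sets above it stayed between 48.5% and 49.2%. All 10 tested members passed limma's moderated F test over the 15 stages (adjusted p between 7.4e-20 and 2.69e-10, Benjamini-Hochberg), as did 99.8% of all tested probe sets, so passing it does not set the members apart.

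Carbamoyl phosphate synthetase, encoded by cps1, fixes ammonia in the mitochondrion and commits it to the cycle. Its probe set cps1.L gave signals between 1.55 and 43.3 on all 28 arrays up to stage 43. At stage 48 the arrays gave 320 and 89.1, of which only the first lay above its median. The stage 48 arrays did not overlap with any other stage, but they differed by more than 3-fold, and the change against stage 43 was 2.45 on the log2 scale with an SE of 0.95 (adjusted p = 0.0531, limma without the filter on low values). The next enzyme, ornithine transcarbamylase, makes citrulline, and its probe set otc.S gave 1.07 to 23.4 up to stage 31. It gave 127 and 117 at stage 37-38, 126 and 86.8 at stage 43, and 253 and 154 at stage 48. These 6 values all exceeded the earlier ones, yet only the first stage 48 array lay above its median. Without the filter, otc.S was higher at stage 37-38 than at stage 31 by 2.75 on the log2 scale (SE 0.91, adjusted p = 0.0372), with both stages under the median, so no fold is given.

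Argininosuccinate synthase, encoded by ass1, joins citrulline to aspartate and also serves the making of arginine outside the liver. The probe set ass1.S stayed between 0.929 and 18.7 through stage 13 and gave 46.1 and 51.5 at stage 17, 89.1 and 81.4 at stage 19, and 177 and 197 at stage 21. It then gave 537 and 454 at stage 23, 1194 and 1217 at stage 26, and 1695 and 1650 at stage 28. Later values were 974 and 1066 at stage 31, 1671 and 1655 at stage 37-38, 1335 and 1188 at stage 43, and 2869 and 1651 at stage 48. Each stage from 17 to 28 thus lay above the one before it with no overlap, while stages 28, 37-38 and 48 overlap in level. Against stage 9 the stage 21 signal was at least 1.43-fold higher (log2 change 6.46, SE 0.46, adjusted p = 1.78e-10, limma), and against stage 21 the stage 31 signal was 5.46-fold higher (2.45, SE 0.46, adjusted p = 0.000225). The steps after stage 31 did not pass on log2 signal (adjusted p = 0.287, 0.572 and 0.183) but did on log2(signal + 50), a scale that damps the noise of values near 0, with changes of 0.68 at stage 37-38 (adjusted p = 0.000573), -0.39 at stage 43 (0.0351) and 0.77 at stage 48 (7.65e-05).

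Argininosuccinate lyase, encoded by asl, splits the product into arginine and fumarate. Its probe sets disagreed both before and after gastrulation. At stage 9 against stage 2, probe set 1 changed by -0.02 on the log2 scale (adjusted p = 0.905, limma). Probe set 2 was 2.59-fold higher there (1.37, adjusted p = 1.13e-10). Probe set 1 gave 230 and 170 at stage 9, 1071 and 1006 at stage 11, 280 and 274 at stage 13, and 58.6 and 73.1 at stage 19. From there it gave 67.6 and 71.6 at stage 21, 121 and 135 at stage 31, 188 and 175 at stage 37-38, 188 and 208 at stage 43, and 259 and 259 at stage 48. The single high stage was therefore the mid gastrula, and the lowest were stages 19 and 21, which overlap. Probe set 2, whose identifier ends in the mark for probes shared by several transcripts of a gene, gave 153 and 145 at stage 2, 423 and 348 at stage 9, 1873 and 1894 at stage 11, and 2392 and 2530 at stage 17. It then gave 1170 and 1251 at stage 21, 794 and 818 at stage 31, 948 and 988 at stage 37-38, 777 and 683 at stage 43, and 541 and 509 at stage 48. It was highest at stage 17 with no overlap with any other stage, and both sets shared the step between stages 9 and 11.

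Between stages 9 and 21 the asl probe sets moved in opposite directions, both past the test. Probe set 1 was at least 1.39-fold lower at stage 21 (log2 change -1.51, SE 0.13, adjusted p = 1.94e-09, limma), and probe set 2 was 3.14-fold higher (1.66, SE 0.09, adjusted p = 8.12e-13). At stage 31 against stage 21 they differed again in sign, with 0.88 for probe set 1 (adjusted p = 1.7e-05) and -0.59 for probe set 2 (2.06e-05), and the fall of probe set 2 turns to 0.03 when arrays are scaled to the poly-A controls. At stage 48 against stage 43 probe set 1 was higher by 0.39 (adjusted p = 0.0222) and probe set 2 lower by -0.47 (0.00022). The call of probe set 1 there was lost without any 1 of the 4 arrays other than the second of stage 43, with adjusted p of 0.0766 to 0.151. Which set follows the asl transcript more closely was not tested, and across the 15 stages their means correlated at r = 0.06 on log2(signal + 50). No direction is given below for asl as a gene.

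Arginase, encoded by arg1, releases urea from arginine. It was the first of the urea cycle genes to appear after cleavage. The probe set arg1.L gave 15.0 and 11.4 at stage 2, 23.3 and 10.2 at stage 5, 1227 and 1250 at stage 9, and 4087 and 4489 at stage 11, its highest stage. It gave 4032 and 3850 at stage 21, 2599 and 2602 at stage 31, 1303 and 1471 at stage 37-38, 753 and 583 at stage 43, and 3040 and 2289 at stage 48. All later arrays lay far above those of stages 2 and 5, and the arrays of stage 43 were below every other array from stage 9 on. At stage 9 the signal was at least 11.4-fold higher than at stage 2 (log2 change 6.57, SE 0.25, adjusted p = 2.76e-13, limma), and at stage 21 it was 3.18-fold higher than at stage 9 (adjusted p = 6.49e-06).

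The later course of arg1.L dipped and came back. It was 1.88-fold lower at stage 37-38 than at stage 31 (log2 change -0.91, SE 0.25, adjusted p = 0.0111) and 2.08-fold lower at stage 43 than at stage 37-38 (-1.06, adjusted p = 0.00332). At stage 48 it was 3.99-fold higher than at stage 43 (1.99, SE 0.25, adjusted p = 2.77e-06). The difference between stages 31 and 21 was -0.60 (adjusted p = 0.0524), passed on log2(signal + 50) (0.000165) and turned to 0.02 under poly-A scaling. Without the second stage 43 array the difference between stages 43 and 37-38 was -0.88 (adjusted p = 0.0519). The difference between stages 37-38 and 31 was lost without either array of stage 31 or the first of stage 37-38 (adjusted p of 0.0517, 0.0577 and 0.0801), and under poly-A scaling it was -0.55 (adjusted p = 0.0768).

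**Figure D1:**
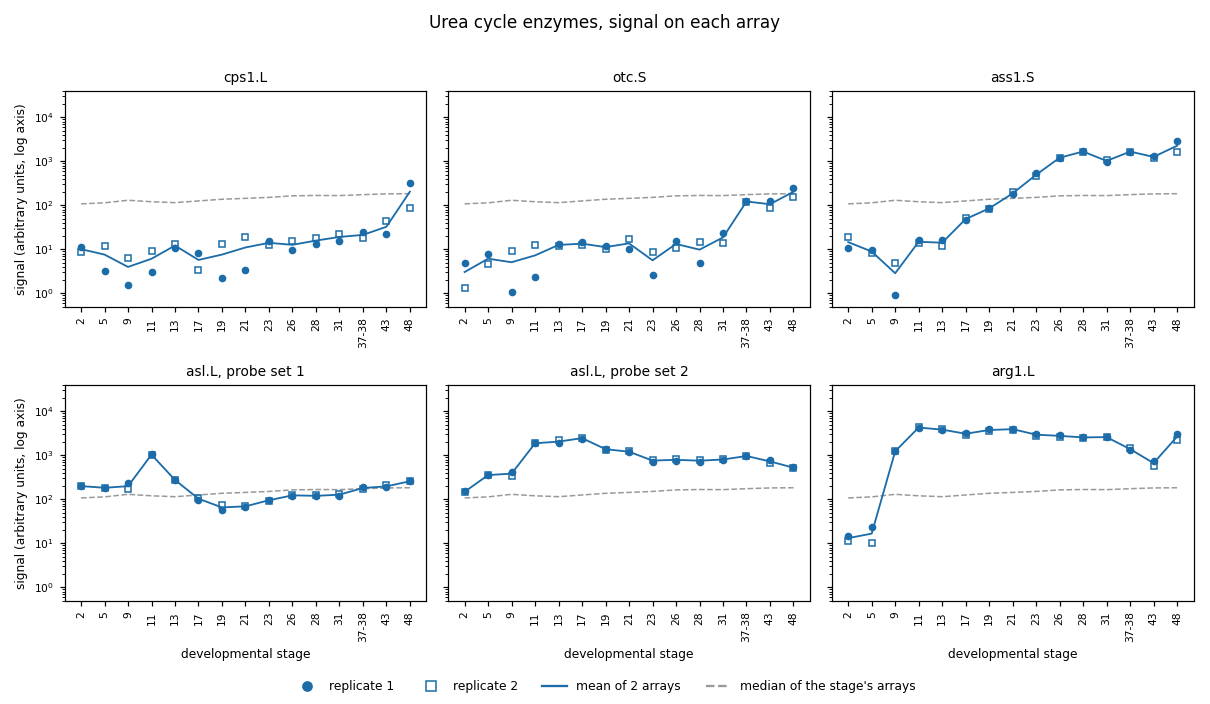
Signal in arbitrary units (log axis) of the 6 urea cycle probe sets against developmental stage, with circles and squares for the 2 arrays of a stage, a line for their mean and a dashed line for the mean of the array medians. arg1.L passes the dashed line at stage 9 and ass1.S at stage 21, and cps1.L and otc.S reach the line on 1 array of stage 48. The asl.L probe sets move apart before stage 9 and again after stage 11.

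The gluconeogenesis genes formed a pair bright from stage 2 and a pair that came on with organ formation. Mitochondrial phosphoenolpyruvate carboxykinase, encoded by pck2, and fructose-1,6-bisphosphatase, encoded by fbp1, made up the first pair. The probe set fbp1.L gave 4962 and 4838 at stage 2, 6003 and 6036 at stage 9, 8110 and 8062 at stage 11, and 13485 and 13081 at stage 13. It gave 17082 and 16290 at stage 21, 19195 and 17249 at stage 31, 15277 and 15289 at stage 37-38, 8451 and 8493 at stage 43, and 14296 and 14821 at stage 48. It lay between 13081 and 19195 on all arrays from stage 13 to stage 48 except those of stage 43, which fell below that whole range. Against stage 9, stage 21 was 2.77-fold higher (log2 change 1.47, SE 0.05, adjusted p = 9.35e-17, limma).

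The probe set pck2.L gave 2214 and 2454 at stage 2, 1490 and 1578 at stage 5, 1766 and 1607 at stage 9, and 3728 and 3673 at stage 21. It gave 5495 and 5815 at stage 23, 6768 and 6762 at stage 28, 9416 and 8130 at stage 31, and 8225 and 8052 at stage 37-38. At stage 43 it gave 3872 and 3844, and at stage 48 it gave 6747 and 6475. The stage 2 signal was thus above that of stages 5 to 13 with no overlap, and the highest values came at stages 31 and 37-38, which overlap. It was lower at stage 9 than at stage 2 by 1.38-fold (adjusted p = 1.15e-05), 2.19-fold higher at stage 21 than at stage 9 (5.66e-12) and 2.37-fold higher at stage 31 than at stage 21 (2.32e-11).

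Both genes of this pair, like arg1, had a low point at stage 43. Against stage 37-38, pck2.L was 2.11-fold lower at stage 43 (log2 change -1.08, SE 0.07, adjusted p = 1.35e-09) and fbp1.L was 1.80-fold lower (-0.85, SE 0.05, adjusted p = 8.67e-11). Against stage 43, stage 48 was higher by 0.78 for pck2.L (SE 0.07, adjusted p = 1.19e-08) and by 0.78 for fbp1.L (SE 0.05, adjusted p = 1.6e-11). These neighbouring intervals share the stage 43 arrays, so a fall and the rise after it are not independent of each other. In the same fit fbp1.L was higher at stage 31 than at stage 21 by 0.13 (adjusted p = 0.0277), which turns to -0.08 with median centring and was lost without the first stage 31 array (0.05, adjusted p = 0.456) or the second stage 21 array (0.09, adjusted p = 0.2). It was lower at stage 37-38 than at stage 31 by -0.25 (adjusted p = 0.000379), which turns to 0.11 under poly-A scaling.

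Cytosolic phosphoenolpyruvate carboxykinase, encoded by pck1, catalyses the step that is mainly set by transcription in mammals. The probe set pck1.L gave 1.35 to 25.5 through stage 19, 54.6 and 38.4 at stage 21, 807 and 742 at stage 23, and 1748 and 1746 at stage 26. It gave 1548 and 1698 at stage 28, 2934 and 2885 at stage 31, 1941 and 1880 at stage 37-38, 4799 and 4526 at stage 43, and 12418 and 13026 at stage 48. From stage 21 on no 2 stages overlapped. Stage 48 was the highest, and stage 37-38 lay between stages 26 and 31. Against stage 21, stage 31 was at least 20.2-fold higher (log2 change 5.99, SE 0.74, adjusted p = 2.77e-06, limma).

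The glucose-6-phosphatase that frees glucose for the blood is encoded by g6pc1.1. The probe set g6pc1.1.L gave 44.3 on 1 array of stage 2 and 0.712 to 2.77 on the other 15 arrays through stage 21. It gave 217 and 156 at stage 23, 142 and 322 at stage 26, 2677 and 2727 at stage 28, and 2389 and 2354 at stage 31. Later values were 570 and 446 at stage 37-38, 1262 and 1296 at stage 43, and 9216 and 9138 at stage 48. The course has a first high at stages 28 and 31, a low at stage 37-38 and its maximum at stage 48, with no overlap between any of these. Against stage 21, stage 31 was at least 16.4-fold higher (log2 change 11.20, SE 0.86, adjusted p = 1.97e-09, limma), and against stage 43, stage 48 was 7.17-fold higher (2.84, SE 0.86, adjusted p = 0.0103).

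For pck1 and g6pc1.1 several late changes depended on the scale, and the signals of both genes were near 0 in the early stages that share the fit. The 4.66-fold lower g6pc1.1.L signal at stage 37-38 than at stage 31 had an adjusted p of 0.0605 on log2 signal and 2.4e-07 on log2(signal + 50), where the change was -2.13. Its 2.52-fold higher signal at stage 43 than at stage 37-38 had adjusted p of 0.267 and 0.000133. For pck1.L the 1.52-fold lower signal at stage 37-38 had adjusted p of 0.596 and 0.000152, the 2.44-fold higher signal at stage 43 had 0.211 and 1.74e-09, and the 2.73-fold higher signal at stage 48 had 0.123 and 4.21e-11. In each of these comparisons the arrays of the 2 stages did not overlap, which 2 arrays per stage can also give without a change. How often this held over all probe sets was not counted. Calls of ass1.S (-2.73) and g6pc1.1.L (-3.69) as lower at stage 9 than at stage 2 rest on signals under the median at both stages and were lost on log2(signal + 50) with adjusted p of 0.1 and 0.0914. That of g6pc1.1.L was also lost without the second stage 2 array (adjusted p = 0.0516).

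**Figure D2:**
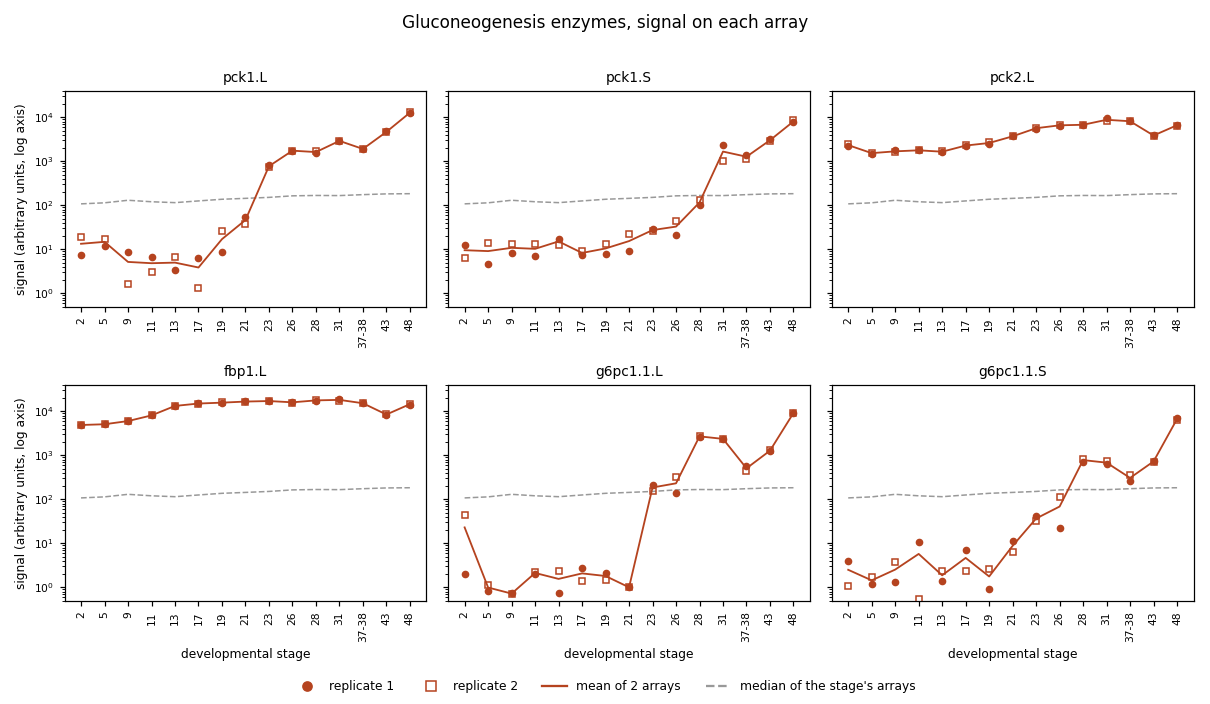
Signal in arbitrary units (log axis) of the 6 gluconeogenesis probe sets against developmental stage, with circles and squares for the 2 arrays of a stage, a line for their mean and a dashed line for the mean of the array medians. pck2.L and fbp1.L stay above the dashed line at all 15 stages and dip at stage 43, while the pck1 and g6pc1.1 copies start near 0 and peak at stage 48.

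The long and short copies of pck1 started at different stages. When pck1.L gave 742 to 1748 at stages 23, 26 and 28, pck1.S gave 28.3 and 26.6 at stage 23, 21.2 and 44.6 at stage 26, and 103 and 130 at stage 28, all under the array median. At stage 31 pck1.S gave 2330 and 1004, and the spread between these 2 arrays was its widest above the median. It then gave 1406 and 1138 at stage 37-38, 3135 and 2893 at stage 43, and 7660 and 8469 at stage 48, with stages 31 and 37-38 overlapping and stage 48 the highest. A dim pck1.S probe set beside a bright pck1.L shows that in these stages the S probes gave little signal from L transcripts, and the opposite case was not tested. The difference between the copies changed over the 15 stages (adjusted p = 3.76e-05, limma F test on the L minus S difference), as it did for 95.8% of the 1720 genes with both copies tested, so this is no mark of pck1.

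Within the intervals, the change of pck1.L exceeded that of pck1.S by 3.18 on the log2 scale between stages 9 and 21 (SE 1.04, adjusted p = 0.0119), where both copies were under the median. The L minus S difference of the change was -0.33 (SE 1.04, adjusted p = 0.904) for stage 37-38 against stage 31, 0.04 (SE 1.04) for stage 43 against stage 37-38 and 0.03 (SE 1.04) for stage 48 against stage 43, errors wide enough to hide a 2-fold difference. On log2(signal + 50) these were -0.33 (adjusted p = 0.389), 0.05 and 0.03, each with an SE of 0.25. By itself pck1.S was at least 11.6-fold higher at stage 31 than at stage 21 (log2 change 6.76, SE 0.54, adjusted p = 2.83e-09) and 2.68-fold higher at stage 48 than at stage 43 (1.42, adjusted p = 0.0361). The last call was lost without any 1 of its 4 arrays (adjusted p between 0.0949 and 0.133) and had an adjusted p of 2.05e-05 on log2(signal + 50).

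The probe sets for both copies of g6pc1.1 shared a low at stage 37-38 and a maximum at stage 48. The probe set g6pc1.1.S gave 0.556 to 11.4 through stage 21, 41.0 and 32.7 at stage 23, 22.4 and 115 at stage 26, and 720 and 843 at stage 28. It gave 639 and 728 at stage 31, 265 and 351 at stage 37-38, 761 and 697 at stage 43, and 7009 and 6429 at stage 48. Like its L partner it was higher at stages 28 and 31 than at stage 37-38 and highest at stage 48, with no overlap in either case. At stage 48 it was 9.22-fold higher than at stage 43 (log2 change 3.20, SE 1.02, adjusted p = 0.0142, limma), a call lost without any 1 of the 4 arrays (adjusted p between 0.0531 and 0.0629) and at 3.21e-11 on log2(signal + 50). Stage 31 was at least 4.74-fold higher than stage 21 (adjusted p = 3.18e-05).

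The courses of g6pc1.1.L and g6pc1.1.S did not differ past the threshold on log2 signal (adjusted p = 0.0623 for the F test on their difference) and did on log2(signal + 50) (adjusted p = 6.95e-09). The rise between stages 21 and 31 was larger for L by 4.86 (SE 1.47, adjusted p = 0.0182), and on log2(signal + 50) by 1.93 (SE 0.21, adjusted p = 2.9e-07). Both copies were far under the array median at stage 21, so these sizes rest on poorly measured values, and against the median the bounds are at least 16.4-fold for L and 4.74-fold for S. On that scale the fall to stage 37-38 was also larger for L, by -1.08 (SE 0.21, adjusted p = 0.000986), against -1.07 (SE 1.47, adjusted p = 0.745) on log2 signal. The stage means of the 2 probe sets correlated at r = 0.97 over the 15 stages, which share all their arrays. The identifier of g6pc1.1.S ends in the same mark as that of asl.L probe set 2. How much each of these probe sets picks up from the other copy was not tested. The L copy was above the array median at 6 of these stages and the S copy at 5.

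In the gene order of the RefSeq table g6pc1.1, g6pc1.2 and g6pc1.3 follow each other on both chromosomes, and the neighbours had courses of their own. The probe set g6pc1.2.S was dim through stage 23, gave 923 and 948 at stage 28, 1031 and 980 at stage 31, 1101 and 1207 at stage 37-38, and only 98.8 and 63.4 at stage 43. At stage 43 it was at least 6.33-fold lower than at stage 37-38 (log2 change -3.86, SE 0.57, adjusted p = 3.03e-05, limma), an interval in which neither copy of g6pc1.1 was lower. The probe set g6pc1.3.L came on at stage 23 with 891 and 869 and gave 4057 and 3472 at stage 31, 2649 and 2469 at stage 37-38, and 4782 and 4562 at stage 48. The probe set g6pc1.2.L was instead bright at cleavage, with 280 and 223 at stage 2 and 317 and 320 at stage 5, under the median from stage 13 to stage 43 and at 256 and 381 at stage 48. The order of stages thus differed between neighbours, and how much each probe set picks up from the neighbouring transcripts was not tested.

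**Figure D3:**
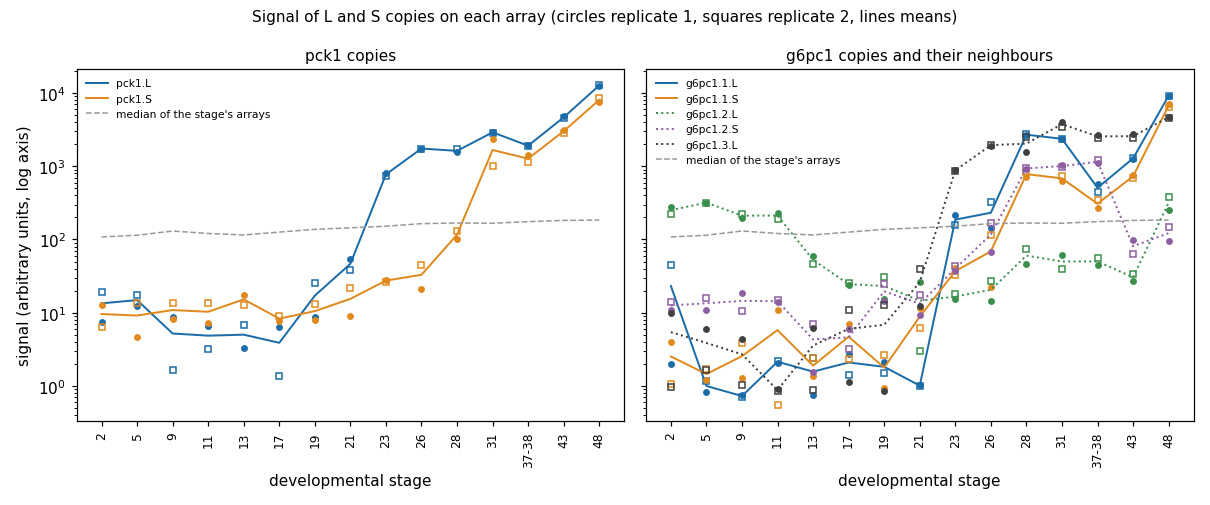
Signal in arbitrary units (log axis) of the L and S copies of pck1 (left) and of g6pc1.1 with its neighbours g6pc1.2 and g6pc1.3 (right) against developmental stage, with circles and squares for the 2 arrays of a stage, lines for means and a dashed line for the mean of the array medians. pck1.L passes the dashed line at stage 23 and pck1.S at stage 31, and g6pc1.2.S drops under it at stage 43 while g6pc1.1.L and g6pc1.1.S go on to their maxima of 9177 and 6719 at stage 48.

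Read interval by interval, the 10 tested members shared no direction before the gastrula. At stage 9 against stage 2, 3 were called higher and 3 lower (limma, adjusted p under 0.05), where 28.8% of all tested probe sets were higher and 24.5% lower, and the member median was 0.04 against 0.01 for all. The higher ones were arg1.L, asl.L probe set 2 and fbp1.L, and the lower ones pck2.L and the dim ass1.S and g6pc1.1.L. With median centring the fbp1.L change there was 0.03 in place of 0.30 and did not pass (adjusted p = 0.699). At stage 21 against stage 9, 6 members were higher and 1 lower, with 41.7% higher and 44.2% lower over all probe sets and a member median of 1.56 against -0.06. The lower one was asl.L probe set 1, and the higher pck1.L was under the array median at both stages. At stage 31 against stage 21, 8 were higher and 1 lower, against 27.0% and 25.5% of all, and the member median was 1.85 against -0.002. The lower one was asl.L probe set 2, and arg1.L was the one not called. Both copies of pck1 and of g6pc1.1 were among the 8. They were under the array median at stage 21 and entered the tests only through brighter later stages. A rise after stage 21 was thus likely in advance for them, so the count is not read against the share of all. Also among the 8, asl.L probe set 1 was under the median at both stages.

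In the later intervals the direction differed between members. At stage 37-38 against stage 31, 2 members were higher (both asl.L probe sets) and 2 lower (arg1.L and fbp1.L), with 11.8% higher and 16.2% lower over all probe sets. The lower members were 5 on log2(signal + 50) and with the 2 stages alone, and 0 under poly-A scaling. Over all tested probe sets, calls in either direction were 6536 on log2 signal, 9311 on log2(signal + 50) and 6071 under poly-A scaling. Without 1 array of either stage, the higher members were 0 to 1 and the lower ones 1 to 2. The call of asl.L probe set 1 was lost without the first array of stage 31 or of stage 37-38 (adjusted p of 0.0813 and 0.0676), and that of probe set 2 without any 1 of the 4 arrays (0.0832 to 0.171). At stage 43 against stage 37-38 none was higher and 4 were lower (asl.L probe set 2, arg1.L, pck2.L and fbp1.L), with 11.5% higher and 19.0% lower over all. On log2(signal + 50), 4 were higher in that interval (both copies of pck1 and both of g6pc1.1) and 5 were lower, with ass1.S beside the 4 above. The pck1 and g6pc1.1 copies thus went up on that scale, and the probe sets that went down had all been above the array median by stage 21. At stage 48 against stage 43, 7 members were higher and 1 lower, with 17.1% higher and 29.0% lower over all, and the median change of all was -0.03 on the log2 scale. The 7 were asl.L probe set 1, arg1.L, pck1.S, pck2.L, fbp1.L and both copies of g6pc1.1, and the lower one was asl.L probe set 2. Without the first stage 43 array or either stage 48 array, 4 were higher in place of 7.

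**Figure D4:**
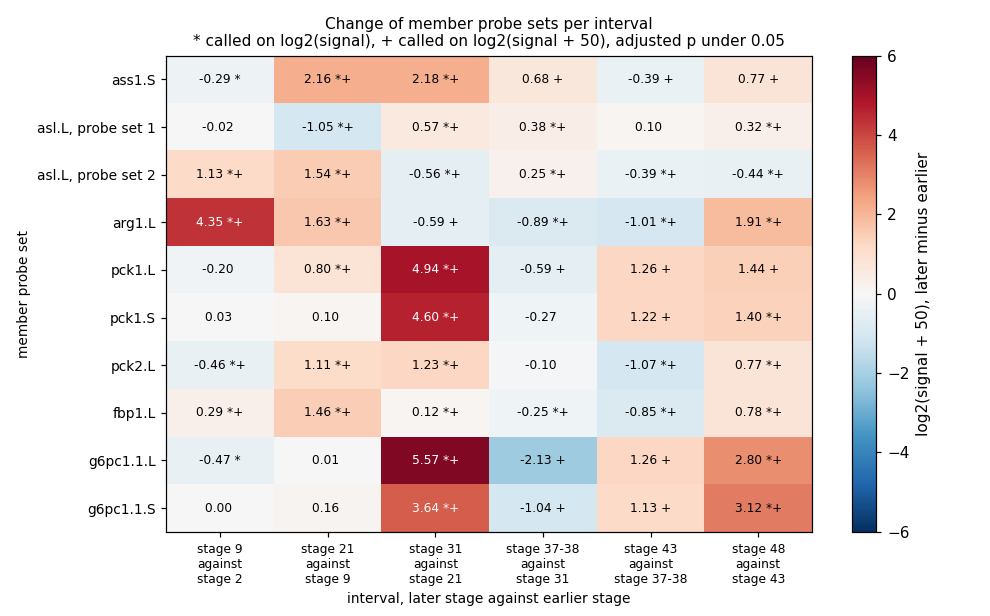
Change of the 10 tested member probe sets in each of the 6 intervals, as log2(signal + 50) of the later minus the earlier stage, with red for higher and blue for lower in the later stage, a star for a call on log2 signal and a plus for a call on log2(signal + 50). The stars of ass1.S and g6pc1.1.L at stage 9 against stage 2 belong to signals under the array median at both stages. So do those of pck1.L at stage 21 against stage 9 and of asl.L probe set 1 at stage 31 against stage 21. The column for stage 43 against stage 37-38 holds 4 calls higher and 5 lower on log2(signal + 50).

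Of a list of 10 partners that feed or drain the urea cycle, 6 were on the array. At stage 9 against stage 2, 2 were higher and 3 lower, where 28.8% and 24.5% of all tested probe sets were. At stage 21 against stage 9, 1 was higher and 4 were lower, where 41.7% and 44.2% of all were. Ornithine aminotransferase, encoded by oat and a user of ornithine, had mean signals of 5947 at stage 2, 2791 at stage 9, 65.7 at stage 21, 153 at stage 31, 311 at stage 37-38, 492 at stage 43 and 822 at stage 48. At stage 21 it was at least 19.4-fold lower than at stage 9 (adjusted p = 2.01e-20, limma). The mitochondrial arginase arg2.S was the higher one, at 521 at stage 21 and 134 at stage 9 (3.88-fold, adjusted p = 5.72e-10), and it was again higher with 1622 at stage 48 and 760 at stage 43 (adjusted p = 1.12e-05). The aspartate and glutamate carrier slc25a13.L was 2.01-fold higher at stage 31 than at stage 21 (adjusted p = 7.96e-11), and the mitochondrial carbonic anhydrase ca5b.L fell to 1907 at stage 21, against 3414 at stage 9 (adjusted p = 6.27e-08). The agmatine hydrolase gene agmat.S was lower with 34.6 at stage 21 and 161 at stage 9 (adjusted p = 7.28e-08). At stage 31 against stage 21, 4 of the 6 partners were higher and 2 lower, where 27.0% and 25.5% of all were.

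A list of genes of ammonia and amino acid nitrogen was counted in the same way. Of 11 tested members of that list, 5 were higher and 5 lower at stage 21 against stage 9, near the 41.7% and 44.2% of all. At stage 31 against stage 21, 7 were higher and 1 lower, where 27.0% and 25.5% of all probe sets were. Tyrosine aminotransferase, encoded by tat and a liver enzyme of fasting in mammals, had 849 at stage 9, 13.4 at stage 21, 215 at stage 37-38 and 1832 at stage 48, and was at least 5.88-fold lower at stage 21 than at stage 9 (adjusted p = 8.57e-07). Proline dehydrogenase (prodh.L) was at least 7.96-fold lower (1.22e-14) and alanine aminotransferase (gpt.L) 7.46-fold lower (1.45e-15) at stage 21 than at stage 9. In the same interval the branched-chain aminotransferase bcat1.L was at least 20.5-fold higher (1.72e-18) and aldh4a1.L, of proline breakdown, 6.85-fold higher (3.83e-08). Among 3 tested transport genes the ammonia channel rhbg.S was at least 3.73-fold higher at stage 43 than at stage 37-38 (adjusted p = 0.000221) and reached 2074 at stage 48. The water and glycerol channel aqp3.L was at least 1.13-fold higher at stage 21 than at stage 9 (7.94e-06), and the amino acid carrier slc38a2.L at least 6.66-fold higher at stage 9 than at stage 2 (1.49e-13).

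The partners of gluconeogenesis moved with the members most clearly at stage 31 against stage 21. At stage 31 against stage 21, 15 of 16 tested partners were higher and 1 lower, with a median of 1.84, next to the 27.0% of all probe sets that were higher. The list holds g6pc1.3.L and g6pc1.2.S, neighbours of the member g6pc1.1, and both were among those higher in that interval. In the interval before, 7 were higher and 6 lower, near the 41.7% and 44.2% of all. At stage 48 against stage 43, 6 were higher, 2 lower and 8 not called, where 17.1% and 29.0% of all were higher and lower. Phosphoglycerate kinase (pgk1.L) had 5121 at stage 9, 549 at stage 21 and 3395 at stage 31, and phosphoglucose isomerase (gpi.S) had 3339 at stage 9, 378 at stage 21 and 1383 at stage 31. Both serve glycolysis as well, and both were lower at stage 21 than at stage 9, by 9.34-fold and 8.83-fold (adjusted p = 9.39e-19 and 4.23e-19). The second fructose bisphosphatase, fbp2, was bright early, with 320 at stage 2 and 394 at stage 9, under the median from stage 11 to stage 37-38, and 706 at stage 48. At stage 43 against stage 37-38, where fbp1.L was lower, fbp2 was at least 1.61-fold higher (adjusted p = 0.0025).

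Of 13 tested glucose and glycogen genes, 8 were higher and 2 lower at stage 9 against stage 2, where 28.8% and 24.5% of all were. At stage 21 against stage 9, 7 were higher and 5 lower, where 41.7% and 44.2% of all were. At stage 31 against stage 21, 6 were higher and 5 lower, where 27.0% and 25.5% of all were. At stage 37-38 against stage 31, 3 were higher and 3 lower (11.8% and 16.2% of all). The same counts came at stage 43 against stage 37-38 (11.5% and 19.0% of all). At stage 48 against stage 43, 6 were higher and 1 lower, where 17.1% and 29.0% of all were. Calls thus went both ways from stage 9 to stage 43 and were mostly higher in the first and last intervals. Hexokinase 1 (hk1.L) was at least 11.5-fold higher at stage 21 than at stage 9 (adjusted p = 2.34e-10), while hexokinase 2 (hk2.L) was at least 7.80-fold lower at stage 31 than at stage 21 (6.13e-12). The muscle glycogen phosphorylase pygm.S came on like arg1, at least 5.92-fold higher at stage 9 than at stage 2 (1.17e-19), whereas the liver form pygl.S was 6.34-fold lower at stage 21 than at stage 9 (1.97e-16). The glucose transporter slc2a1.L was 6.63-fold higher in that interval (7.57e-16). Among the regulators known to answer fasting and hormones, 7 were tested, of which 3 were higher and 1 lower at stage 48 against stage 43, where 17.1% and 29.0% of all were. Of these pdk4.S, which shuts pyruvate off from oxidation, had 5434 at stage 48 and 1026 at stage 43 (adjusted p = 3.87e-06). The other, igfbp1.L, an insulin-repressed gene of mammalian liver, had 3274 at stage 48 and 631 at stage 43 (3.25e-06). Already at stage 9, pdk4.S was at least 13.3-fold higher than at stage 2. At stage 21, igfbp1.L was at least 1.55-fold higher than at stage 9. At stage 43 against stage 37-38, 4 of the 7 regulators were higher and 2 lower, where 11.5% and 19.0% of all were. The glucocorticoid receptor nr3c1.L and ppara.S were lower at stage 21 than at stage 9, by at least 1.67-fold and by 3.04-fold, and insulin (ins.S) was at least 1.25-fold higher at stage 31 than at stage 21.

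Most tested transcription factors of a list of liver regulators were higher before the pck1 and g6pc1.1 copies passed the array median. Which tissues of the whole embryo gave their signal was not tested, nor was any effect on these copies. At stage 21 against stage 9, 5 of 7 tested liver regulators were higher and none lower, where 41.7% and 44.2% of all were, with foxa1.L at 2167 at stage 21 and 63.6 at stage 9. The mean signals were 662 at stage 21 and 2.01 at stage 9 for nr5a2.S, 402 at stage 21 and 21.9 at stage 9 for foxa2.L, and 169 at stage 21 and 14.1 at stage 9 for hnf4a.S. Each of these 4 passed with an adjusted p of 1.6e-08 or lower. The early factor hhex.L was at least 1.69-fold higher at stage 9 than at stage 2 (1.3e-10). At stage 31 against stage 21, 3 of the 7 were higher and 1 lower, where 27.0% and 25.5% of all were. Their median change there was -0.41 on the log2 scale. Afterwards hnf4a.S had 933 at stage 31, 649 at stage 37-38, 506 at stage 43 and 797 at stage 48, a course whose later differences did not pass (adjusted p between 0.161 and 0.51).

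Markers of liver cells moved with the members in the interval where most of these were higher. At stage 31 against stage 21, 12 of 13 tested liver markers were higher, where 27.0% of all probe sets were, and their summed signal was 27550 to 34287 at stage 31 and 5666 to 6294 at stage 21. Among them the fibrinogen chain fga.S had 1321 at stage 31 and 3.01 at stage 21, and fgb.L had 204 at stage 31 and 0.92 at stage 21. Apolipoprotein B (apob.S) had 457 at stage 31 and 1.5 at stage 21, apolipoprotein A1 (apoa1.L) had 4458 at stage 31 and 53.0 at stage 21, and fetub.S already had 4228 at stage 21. From stage 31 to stage 37-38 the sum was higher again, at 94030 to 96624, with 9 of 13 called higher where 11.8% of all were, while no pck1 or g6pc1.1 copy was called higher and the 4.66-fold lower signal of g6pc1.1.L had an adjusted p of 0.0605 (limma). At stage 43 against stage 37-38, 1 of the 13 was higher and none lower, where 11.5% and 19.0% of all were, with sums of 120693 to 126216 at stage 43. At stage 48 against stage 43, where both copies of g6pc1.1 were higher, 1 was higher and 3 lower, near the 17.1% and 29.0% of all, with a sum of 100020 to 100155 at stage 48. The part of liver cell numbers in these results was not tested.

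Markers of gut and pancreas were counted in the last intervals too, next to 11.5% higher and 19.0% lower over all probe sets at stage 43 and 17.1% and 29.0% at stage 48. Of 8 intestine markers, 3 were higher and none lower at stage 43 against stage 37-38, and 5 were higher and none lower at stage 48 against stage 43, with sums of 1022 to 1288 at stage 31, 7188 to 7959 at stage 37-38, 16154 to 18458 at stage 43 and 40089 to 42594 at stage 48. The villus protein vil1.S had 2705 at stage 43 and 112 at stage 37-38, mep1a.L had 393 at stage 48 and 8.33 at stage 43, fabp2.L had 563 at stage 31 and 11.0 at stage 21, and apoa4.L had 640 at stage 37-38 and 17.5 at stage 31. The early intestinal factor cdx2.L, also a gene of the embryo's tail end, had 1252 at stage 21 and 59.1 at stage 9. The sum over the 8 intestine markers had already been 9186 to 9706 at stage 13, above that of stage 37-38. Of 7 pancreas markers, 6 were higher and 1 lower at stage 43 and 4 higher at stage 48, with sums over 8 of 596 to 659 at stage 37-38, 14757 to 19220 at stage 43 and 86711 to 87524 at stage 48. The chymotrypsin genes ctrb1.L (9351 at stage 43 and 120 at stage 37-38) and ctrl.L (4435 at stage 43 and 17.6 at stage 37-38), the elastase cela2a.L (577 at stage 43 and 8.47 at stage 37-38) and the amylase amy2a.L (14145 at stage 48 and 194 at stage 43) led them, while the lipase probe set pnlip.L was bright at stage 21 already, with 986. Against these shifts of total signal the members are relative, and the part of the digestive organs in their changes was not tested.

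Of 4 tested kidney markers 1 was higher and none lower at stage 37-38 against stage 31, none was higher and 1 lower at stage 43, and 1 was higher and none lower at stage 48. Among all probe sets 11.8%, 11.5% and 17.1% were higher and 16.2%, 19.0% and 29.0% lower in these intervals. All 4 kidney markers were higher at stage 21 against stage 9, where 41.7% of all were. The sums over 6 were 1308 to 1495 at stage 31, 2106 to 2245 at stage 37-38, 1857 to 1958 at stage 43 and 2187 to 2533 at stage 48. They had been 2978 to 3072 at stage 17, above all of these later stages. The endocytic receptor lrp2.L was at least 3.85-fold higher at stage 21 than at stage 9, and lhx1.L at least 3.68-fold higher at stage 9 than at stage 2. Which tissues gave the signals of this list at stages 9, 17 and 21 was not tested. All 6 tested muscle markers were higher at stage 21 against stage 9, where 41.7% of all were, the interval in which fbp1.L and ass1.S were higher as well, with actc1.L, myl1.S, mylpf.L, tnnc2.S and tnni2.S at 20458, 13355, 14167, 8603 and 7598 at stage 21, and in the same order at 3.74, 0.60, 2.36, 4.68 and 4.38 at stage 9. At stage 48 against stage 43, 1 of the 6 was higher and none lower, where 17.1% and 29.0% of all were. Their part in the members' changes was not tested.

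**Figure D5:**
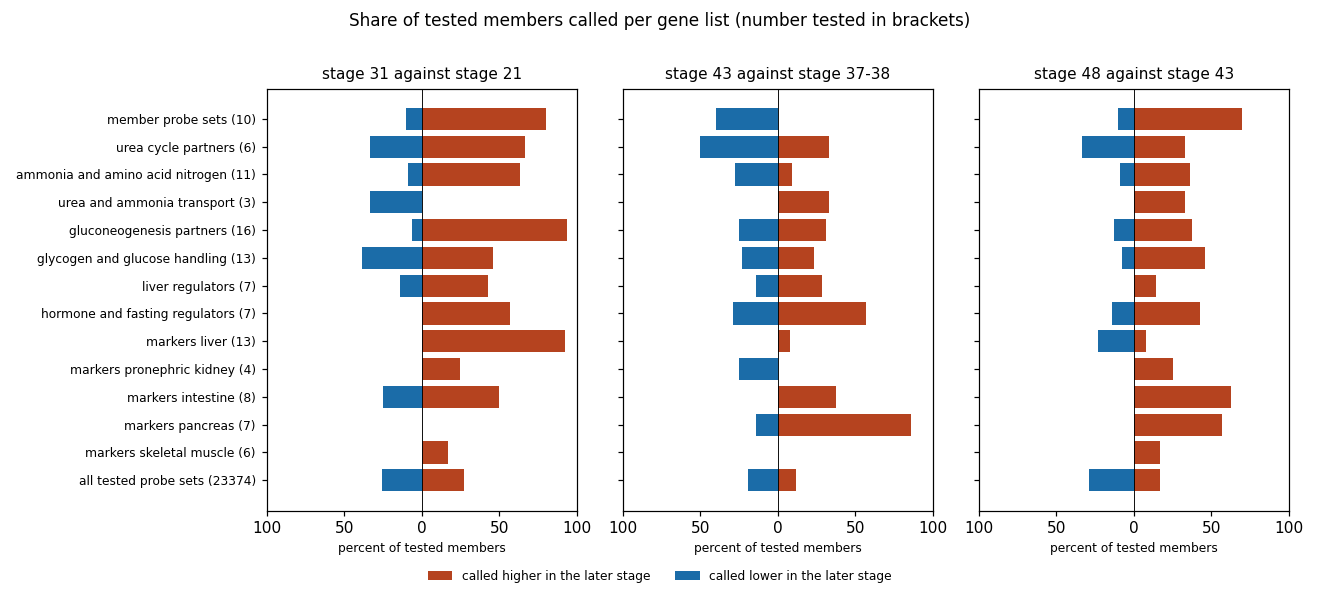
Percent of tested members called higher (red, to the right) and lower (blue, to the left) in the later stage for the members, 7 pathway and regulator lists, 5 marker lists and all tested probe sets, in 3 intervals. Gluconeogenesis partners (15 of 16) and liver markers (12 of 13) were higher at stage 31 against stage 21, pancreas markers (6 of 7) at stage 43, and the members (7 of 10) at stage 48, where 1 of 13 liver markers was higher.

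Among themselves the members varied in how alike their courses were. Over the 15 stage means of log2(signal + 50), which share their arrays, ass1.S correlated with pck1.L at 0.96 and with pck2.L at 0.94, and pck1.L with g6pc1.1.L at 0.95. The probe set arg1.L correlated with fbp1.L at 0.80 and with asl.L probe set 2 at 0.78, but with pck1.L at 0.18. Correlations of pck2.L were 0.87 with pck1.L and 0.68 with fbp1.L, and fbp1.L correlated with ass1.S at 0.61. Groups by course were thus not sharply separate. No correlation is given for cps1.L and otc.S, which were above the array median on both arrays at no stage. The probe sets ass1.S, pck1.L and g6pc1.1.L were above it at 8, 7 and 6 of the 15 stages. Their correlations therefore include many dim and poorly measured stages. All the correlations are descriptions with 15 points each.

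The genes most like each member came from a search over 6318 other genes with a bright stage, by the same correlation over 15 stage means. The probe set pck2.L was most like hnf4a.S (0.96), a nuclear receptor of liver, kidney and gut, followed closely by ldha.S and nqo1.L (both 0.96). At stage 9 hnf4a.S was dim with a mean of 14.1, while pck2.L had 1686, and a link between them was not tested. The probe set pck1.L was most like myoz2.L (0.99), MGC147475.S (0.99) and the glucose-6-phosphatase neighbour g6pc1.3.L (0.99), and ass1.S was most like chrne.L (0.99), c7.S (0.99) and cd37.L (0.98). For arg1.L the nearest were dll1.L (0.98), aplnr.L (0.98) and xicl (0.97), which all peaked between stages 11 and 17. The nearest to fbp1.L were vapb.S, ppp1r1a.L and impdh2.L (all 0.97), to g6pc1.1.L lcp1.S (0.96), clic5.S and lyg2.S (both 0.95), and to asl.L probe set 2 unc50.S, nek2.S (both 0.96) and dlx6.S (0.95).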

How the data were processed

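The authors deposited 1 linear signal intensity per probe set and array, made with MAS5 per the submitters' processing notes, in a version not given in the sources used here. Per the labels, RNA came from a lipid tissue column kit and was labelled in 1 amplification cycle. Every array had a 2% trimmed mean of 500, so no further normalization was applied. Intensities were taken as log2. Of 32635 probe sets, 160 control and reporter sets were left out. Symbols came from the platform annotation: 15495 probe sets had 1, 279 had several and 16701 had none. By Entrez identifier 15384 of the 15495 matched RefSeq's table for assembly v10.1, which served for names and gene order. No detection calls were used.

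One limma 3.58.1 model in R 4.3.3 covered all 30 arrays, with a mean per stage, 15 residual degrees of freedom and eBayes with its trend and robust options. P-values of each comparison were adjusted by Benjamini-Hochberg over the 23374 tested probe sets, those with a stage whose arrays each exceeded their own 50th percentile, and called at 0.05. Tests were the F test over 15 stages, 6 intervals, and the same model on L minus S differences of 1720 genes. Figures used matplotlib 3.10.9 in Python 3.11.15.

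All members are named. From each list up to 5 genes are named, those with the largest change in any interval among called probe sets without replicate overlap that were above the array medians in their brighter stage, and for likeness the 3 genes with the highest r. The probe set with the highest mean stands for a list gene. Members and lists were chosen with earlier results of these data known, and the lists come from textbook knowledge. Alternatives were quantile normalization, median centring, poly-A scaling, other filters, log2(signal + 50), plain eBayes, array weights by stage, a replicate block, the 2 stages alone, a 2-fold threshold and leaving out each array. The fit was tested on simulated data. The number of arrays limits the precision.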

Additional observations from a re-analysis of the deposited data

How the results depend on the processing

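Of 50 member changes, the direction and the side of the threshold were kept in 48 under quantile normalization, 46 under median centring, 43 under poly-A scaling, 50 without the filter, 49 with the filter at the 75th percentile, 36 on log2(signal + 50), 49 with plain eBayes, 47 with array weights, 37 with the 2 stages alone and 35 with the 2-fold threshold. Sign changes were those of fbp1.L at stage 31 against stage 21 under median centring (-0.0838) and, under poly-A scaling, of asl.L probe set 2 (0.0335) and arg1.L (0.0196) in that interval and of fbp1.L at stage 37-38 against stage 31 (0.11). The cause was not tested. Across 105 pairs of stages, the differences between replicates 1 and 2 correlated at -0.06 to 0.04, so the replicate numbers do not pair arrays of different stages. With the number as a replicate block, 49 of 50 changes stayed and 2 members in place of 1 were lower at stage 31 against stage 21. The 50 changes leave out some changes of tested members that were not called on log2 signal.

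The single member lower at stage 31 against stage 21 became 2 with median centring, the 75th percentile filter, log2(signal + 50), array weights and the 2 stages alone, and 0 under poly-A scaling and the 2-fold threshold. At stage 37-38 against stage 31 the 2 higher members became 1 with median centring and 0 with the 2-fold threshold, and the 2 lower became 0 under poly-A scaling and the 2-fold threshold and 5 on log2(signal + 50) and with the 2 stages alone. At stage 43 against stage 37-38, 0 higher became 4 on log2(signal + 50) and with the 2 stages alone and 1 with array weights, and 4 lower became 2 with the 2-fold threshold. That threshold also gave 4 higher in place of 7 and 0 lower in place of 1 at stage 48 against stage 43, 5 lower in place of 12 over the 6 intervals, and 38 list genes lower in place of 92, which poly-A scaling made 49. The 3 lower at stage 9 against stage 2 became 1 on log2(signal + 50). Copies with different courses were 1, and 2 on log2(signal + 50) and with array weights.

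Leaving out each array in turn gave 1 to 2 lower at stage 31 against stage 21, 0 to 3 higher and 1 to 3 lower at stage 37-38 against stage 31, 0 to 1 higher at stage 43 against stage 37-38, 4 to 8 higher at stage 48 against stage 43, and 1 to 2 copies with different courses. Of 1500 refits of the same member changes, 24 lost the call, 10 gained it and 0 changed sign. The gains came without an array of stage 2 (g6pc1.1.L at stages 37-38 and 43), stage 5 (arg1.L at stage 31) or stage 9 (ass1.S at stages 37-38 and 48). Over all tested probe sets, the calls at stage 43 against stage 37-38 were 7135, and 3168 under poly-A scaling and 9857 on log2(signal + 50). Those at stage 21 against stage 9 were 20084, and 13079 with the 75th percentile filter, which tests fewer. The 6536 calls at stage 37-38 against stage 31 became 4083 without the second array of stage 31 and 4354 without the first of stage 37-38. A 2-fold threshold left 4252 of 12469 calls at stage 9, 3987 of 12253 at stage 31, 1127 of 6536 at stage 37-38, 1181 of 7135 at stage 43 and 3088 of 10786 at stage 48. Signals under the array median limit what can be said of cps1, otc and the early stages of ass1, pck1 and g6pc1.1.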
